A study of Sus scrofa with 8 samples.

Results

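The genes described here are the ligands and receptors of the tumour necrosis factor (TNF) superfamily that were measured in pig liver before and after a steatotic diet. They were chosen by name alone, as every listed gene whose symbol is TNFSF or TNFRSF followed by a number, together with TNF, LTA, LTB, CD40, CD40LG, CD27, CD70, FAS, FASLG and LTBR. The rule found 37 of the 18103 genes in the expression table, namely 17 ligands and 20 receptors, of which TNFRSF6B and TNFRSF11B are decoy receptors. All were male Landrace x Large White pigs, and hepatic RNA was sequenced as pools of 2 animals each. The 4 initial pools were from healthy pigs of 4 months of age, sampled by liver biopsy, and the 4 steatosis pools were from the same animals at 6 months, sampled at euthanasia after 2 months on a diet rich in saturated fat, fructose, cholesterol and cholate and poor in choline and methionine. Diet, age and the way of sampling therefore changed together and cannot be told apart, and these data hold no pools of pigs kept on a control diet for that time. A replicate is a pool, so every SD is between pools and not between pigs.

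TNF superfamily ligands are mostly membrane proteins that act as trimers and can be cut from the cell surface. Their receptors either carry a death domain, as in FAS and TNFRSF1A, or recruit TRAF adaptor proteins, which lead to the transcription factor NF-kB and to kinase cascades. In the liver the family is known for hepatocyte death, for the activation of macrophages and for the help that lymphocytes and antigen-presenting cells give each other.

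Expression was deposited as FPKM, a count of fragments scaled to transcript length and to the mapped fragments of the library, so that levels of genes of different length can be set side by side. The lowest step between values corresponded to a single fragment and placed all libraries between 90.2% and 100% of the deepest, near 17.1 M to 19 M counted fragments. From that step, the approximate number of fragments behind a value is given below where it is small. Steatosis was set against the initial state by limma, with log2(FPKM + 0.1) as the value, over the 13175 genes that reached 0.3 FPKM in at least 4 of the 8 libraries, and a gene was called when its log2 fold change passed 1 and its Benjamini-Hochberg adjusted p was under 0.01. Over all tested genes the median log2 fold change stood at 0.25, and differences are to be read against that shift. Median-ratio scaling, in which a library is divided by the median over genes of its ratio to the average library, brought this median to -0.01. The tissue was liver by its markers, since ALB, TTR and the other 6 hepatocyte genes summed to between 47265 and 84644 FPKM in every pool. Initial pool 1 stood apart, with 2777 FPKM of skeletal muscle genes and 1516 FPKM of stomach genes, against at most 20.8 and 28.4 FPKM in the other 7 pools.

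Of the 37 members, 5 rose in steatosis and none fell. These were the receptor TNFRSF9 and its ligand TNFSF9, the receptor TNFRSF12A and its ligand TNFSF12, and the death receptor FAS. In the same limma fit 6.01% of all tested genes were called higher and 0.334% lower. A total of 29 members passed the filter on low values and could be tested, 10 of the ligands and 19 of the receptors. Among these, 12 had an adjusted p under 0.01 and 16 an adjusted p under 0.05, each time with higher values in steatosis, where 12.9% and 26.7% of all tested genes did so, and 0 members were lower at an adjusted or an unadjusted p under 0.05. With the median-ratio scaling, described above, 7 members had an adjusted p under 0.01 and 11 an adjusted p under 0.05 with higher values in steatosis, where 5.65% and 11.6% of all tested genes did so. The 4 steatosis pools were all above the 4 initial pools for 15 of the 29, 3 ligands and 12 receptors, against 29.6% of all tested genes, and all below for none, against 2.53%. The 5 calls also held without initial pool 1. In bulk tissue, a change in the number of cells of a type and a change in RNA per cell cannot be told apart.

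The median log2 fold change of the tested members was 0.75, beside 0.25 for all tested genes. All 29 had a log2 fold change above 0, as 78.7% of all tested genes had, but with the median-ratio scaling TNFSF10, TNFSF13, LTB and TNFRSF17 were below 0 and 48.8% of all genes were above it, and with upper-quartile scaling TNFSF13 and LTB were below 0. The median of the members was 0.53 with the median-ratio scaling. With no filter, so that all 37 members entered the fit, 36 were above 0 and FASLG was below, and the same 5 were called. A filter of this kind favours genes that are high in a single group: TNFSF9, TNFRSF9, TNFRSF13B, TNFRSF4 and CD40LG reached 0.3 FPKM in 1 initial pool only.

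**Figure D1:**
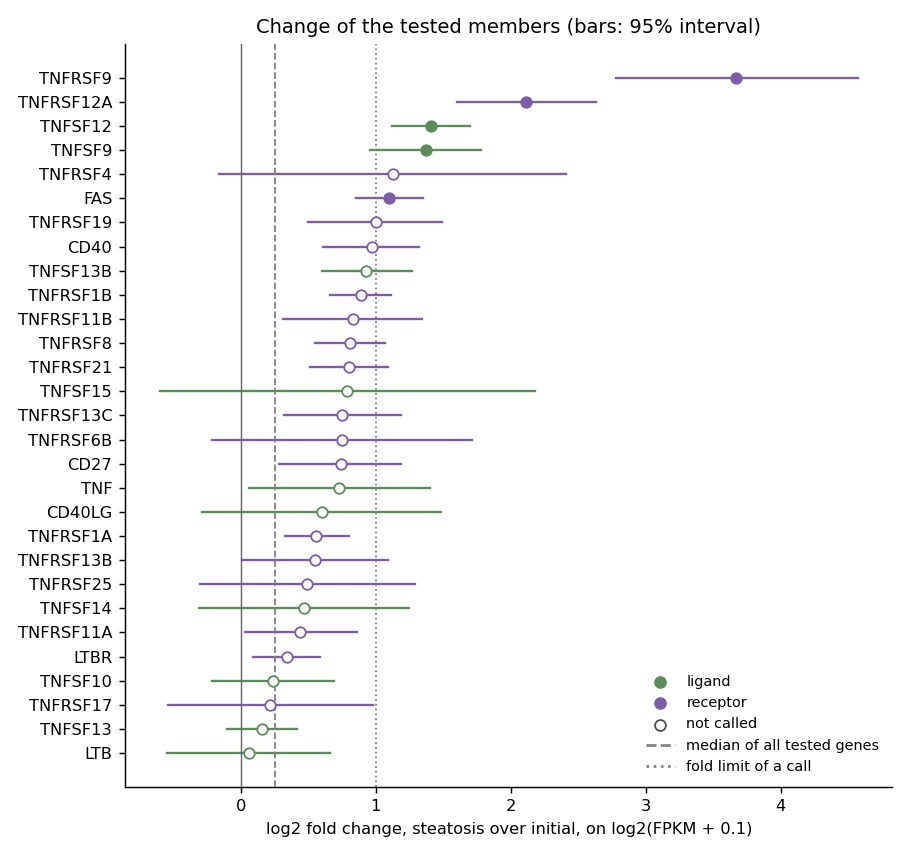
Log2 fold change of the 29 tested members, steatosis over initial, on log2(FPKM + 0.1), with the 95% interval from limma as a bar; ligands are green, receptors are purple and filled points are called. TNFRSF9 lies farthest to the right at 3.67, and 5 of the 29 points are filled.

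Levels differed over several orders of magnitude between members. TNFSF10 (TRAIL), a ligand that can trigger apoptosis through its death receptors, was by far the most abundant ligand, with 68.01, 101.88, 90.39 and 144.8 FPKM in initial pools 1 to 4 and 98.29, 113.71, 130.45 and 120.8 FPKM in steatosis pools 1 to 4. It made up from 79.5% to 91.3% of the summed FPKM of all ligands in each pool. The groups overlapped and its log2 fold change was 0.24 (SE 0.20, limma adjusted p = 0.393), close to the shift of all genes. In steatosis the next ligands in order of mean level were TNFSF12, TNFSF13 and TNFSF13B, whose means stayed under 10 FPKM in both groups, while LTB (2.29 FPKM) was above TNFSF13B (1.83 FPKM) in the initial state. Among receptors, TNFRSF1A, LTBR and TNFRSF1B formed the top of the order with means from 16.2 to 34.4 FPKM, and together held from 73.7% to 76.5% of the receptor FPKM in initial pools and from 66.6% to 69% in steatosis pools. At the other end, 8 members did not pass the filter. They were the ligands FASLG, CD70, LTA, TNFSF4, TNFSF11, TNFSF18 and TNFSF8 and the receptor TNFRSF18, with means from 0.0275 to 0.302 FPKM initially and from 0.0525 to 0.455 FPKM in steatosis. At these levels a value rested on at most 22 fragments, so that moderate differences were not detectable at this depth. TNFSF18 (GITRL), the ligand of TNFRSF18, measured 0.08, 0.1, 0.1 and 0.06 FPKM across the initial pools, then 0.11, 0.15, 0.14 and 0.16 FPKM in steatosis, without overlap (two-sided exact permutation test, p = 0.0286, the smallest p this design allows). Its values rested on about 6 to 14 fragments, and no other of these 8 members had separate groups. Any gene without overlap gets this p, and 29.6% of all tested genes had every steatosis pool above every initial pool.

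**Figure D2:**
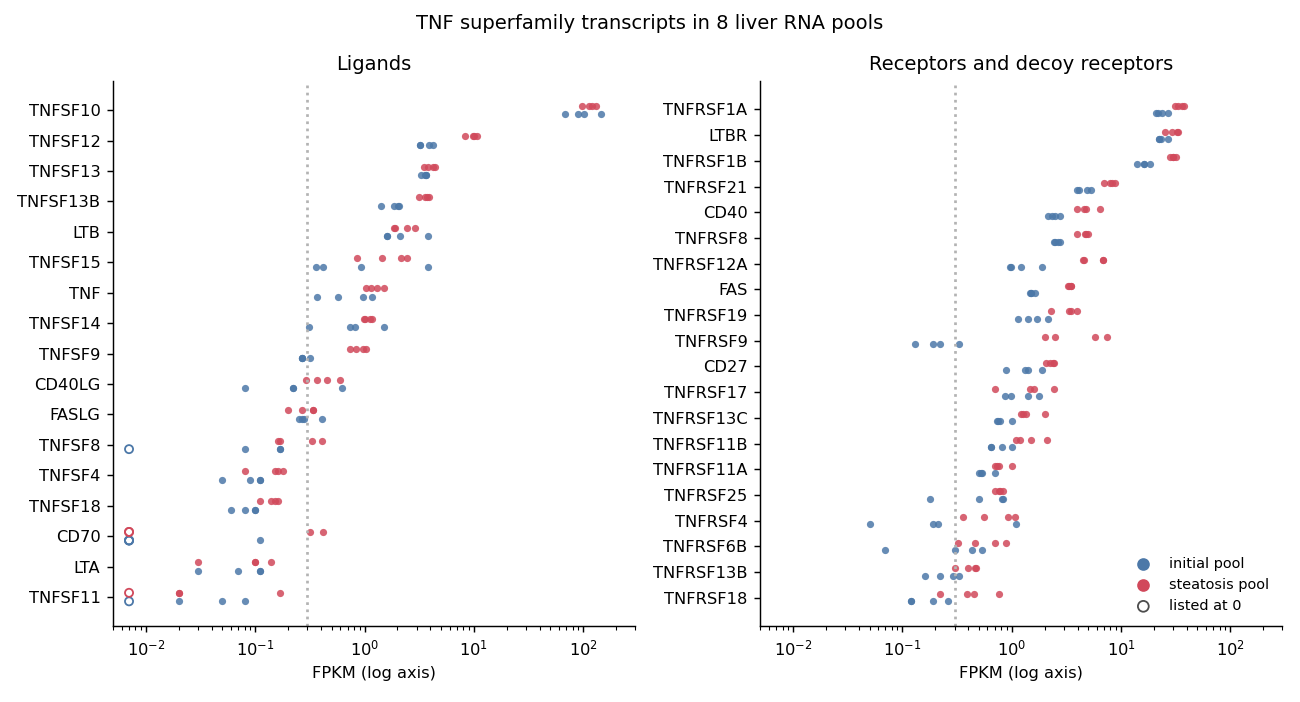
FPKM of all 37 members in each pool on a log axis, ligands on the left and receptors on the right, ordered by their mean, with initial pools in blue and steatosis pools in red; open circles at the left edge are values listed at 0 and the dotted line marks 0.3 FPKM. The 4 steatosis values of TNFRSF9 lie far to the right of its initial values, while those of TNFSF10 lie among them.

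TNFRSF9 (4-1BB, CD137), a costimulatory receptor best known on activated T and NK cells, had the largest log2 fold change of the tested members. It measured 0.13, 0.22, 0.19 and 0.33 FPKM across the initial pools, then 5.76, 2.49, 2.02 and 7.46 FPKM in the steatosis pools. All steatosis pools were far above all initial pools, and within steatosis pools 1 and 4 were higher than pools 2 and 3. The mean rose from 0.218 ± 0.0838 to 4.43 ± 2.62 FPKM (n = 4 pools, SD), a ratio of 20.4, and the log2 fold change was 3.67 (standard error, SE, 0.40, limma adjusted p = 0.000244), at percentile 99.9 of all tested genes. About 5 to 14 fragments stood behind the initial values and about 82 to 301 behind those of steatosis, so the size of the ratio rests on a low baseline. The log2 fold change ranged from 2.03 with a pseudocount of 1 to 3.97 without steatosis pool 3. The gene (100519368) lies on chromosome 6 of Sscrofa11.1, 68590562 to 68609784.

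Its ligand TNFSF9 (4-1BBL), which is carried mainly by antigen-presenting cells, measured 0.27, 0.27, 0.32 and 0.27 FPKM across the initial pools, then 0.83, 1.03, 0.74 and 0.97 FPKM in steatosis. The groups were well separated and the initial pools were almost equal, although only about 10 to 13 fragments were counted there and 29 to 41 in steatosis. Its log2 fold change was 1.37 (SE 0.18, limma adjusted p = 0.000729). With a pseudocount of 1 it was 0.56, under the limit of a call. Ligand and receptor thus rose together, but the order of the pools differed, since steatosis pool 2 was the highest for TNFSF9 and among the lowest for TNFRSF9. TNFSF9 (100736831) lies on chromosome 2, 72578811 to 72582834.

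TNFRSF12A (Fn14) is the receptor of TNFSF12 (TWEAK), a cytokine of macrophages and other cells that acts on parenchymal and progenitor cells in injured tissue. TNFRSF12A measured 1.88, 1.21, 0.99 and 0.96 FPKM across the initial pools, then 6.86, 4.53, 4.6 and 6.85 FPKM in the steatosis pools. No steatosis pool came near the initial range, and pools 1 and 4 were again the higher ones. The mean rose from 1.26 ± 0.428 to 5.71 ± 1.32 FPKM (SD, n = 4), with a log2 fold change of 2.11 (standard error 0.23, limma adjusted p = 0.000253). TNFRSF12A (100217390) lies on chromosome 3, 39166288 to 39168294.

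TNFSF12 measured 3.88, 3.2, 4.2 and 3.21 FPKM across the initial pools, then 10.75, 8.36, 10.09 and 9.74 FPKM in the steatosis pools. The lowest steatosis pool lay well above the highest initial pool. The mean rose from 3.62 ± 0.499 to 9.73 ± 1.01 FPKM, giving a log2 fold change of 1.41 (standard error 0.13), and its adjusted p of 0.000105 was the smallest of any member by limma. TNFSF12 (100127163) lies on chromosome 12, 52843026 to 52853328, and lies 317 bases from TNFSF13 (APRIL), a ligand of B and plasma cells. TNFSF13 measured 3.55, 3.3, 3.66 and 3.67 FPKM across the initial pools, then 4.41, 3.48, 3.81 and 4.25 FPKM in steatosis. These ranges overlapped, and the log2 fold change of 0.16 (standard error 0.12, 95% interval -0.10 to 0.42) was not past the test (limma adjusted p = 0.319) and turned to -0.11 with the median-ratio scaling. Both genes had similar levels in the initial state, and the neighbours did not move alike. Both calls of the TNFSF12 and TNFRSF12A pair held with every alternative tried.

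**Figure D3:**
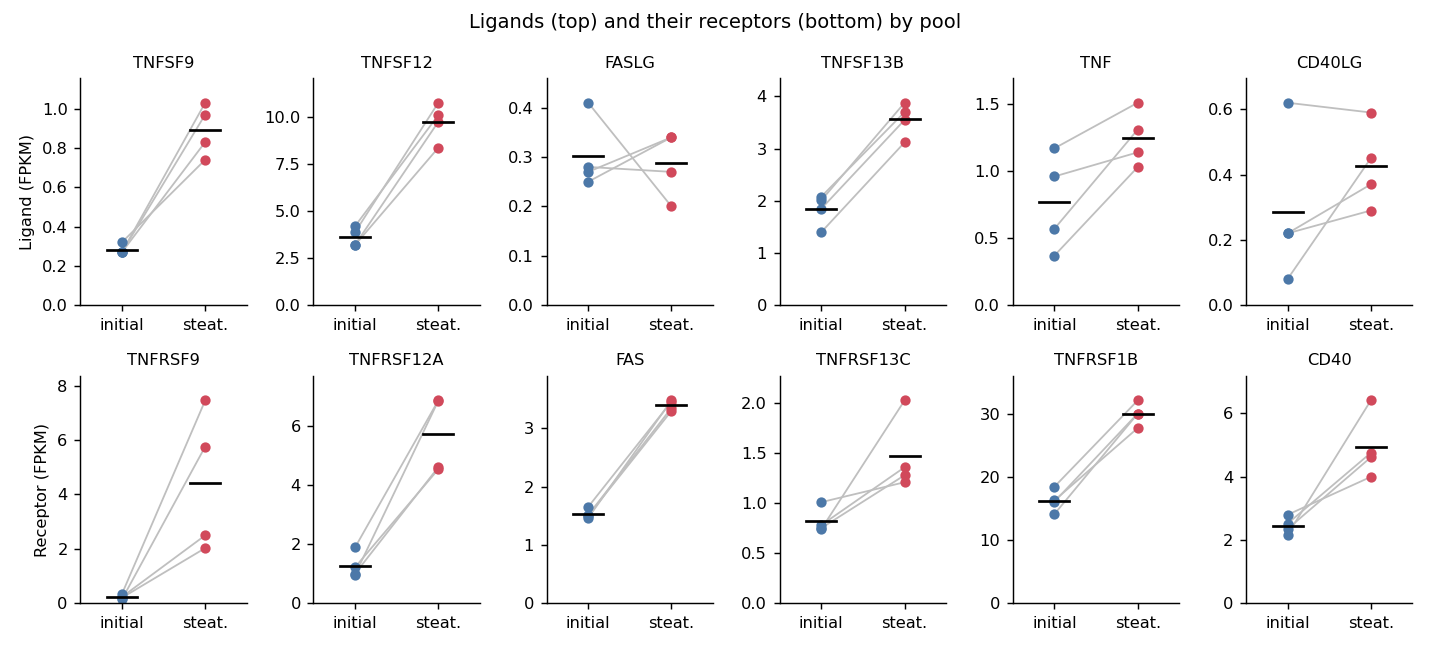
FPKM of 6 ligands (top) and of a receptor of each (bottom) in the initial (blue) and steatosis (red) pools, on axes that start at 0; grey lines join pools of the same number and black bars are means. For TNFSF9 with TNFRSF9 and TNFSF12 with TNFRSF12A both partners rose, whereas for FAS the ligand FASLG averaged 0.302 and 0.288 FPKM.

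Among receptors with a death domain, FAS (CD95) showed the tightest groups. It measured 1.5, 1.65, 1.46 and 1.51 FPKM across the initial pools, then 3.3, 3.46, 3.48 and 3.35 FPKM in the steatosis pools. The mean rose from 1.53 ± 0.0829 to 3.4 ± 0.0866 FPKM (SD, n = 4), with a log2 fold change of 1.10 (standard error 0.11, limma adjusted p = 0.000163). With the median-ratio scaling it was 0.84 (adjusted p = 0.000807), under the fold limit. FAS (396826) lies on chromosome 14, 100927305 to 100954781. Its ligand FASLG, a product of cytotoxic lymphocytes, was at 0.28, 0.27, 0.41 and 0.25 FPKM across the initial pools, then 0.27, 0.34, 0.2 and 0.34 FPKM in steatosis, with about 3 to 6 fragments per pool. The groups overlapped fully (two-sided exact permutation test, p = 0.857). The decoy receptor TNFRSF6B, which binds FASLG, had a wide interval, with a log2 fold change of 0.75 (95% interval -0.21 to 1.71) and an adjusted p of 0.211 from limma. Its locus overlaps the genes RTEL1 and ARFRP1. Whether exons are shared was not looked at, so its reads may be uncertain.

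TNFRSF1A, the widely expressed receptor that binds TNF and signals through TRADD, measured 20.93, 26.65, 23.48 and 22.01 FPKM across the initial pools, then 35.79, 32.89, 31 and 37.85 FPKM in steatosis. The groups did not overlap and the log2 fold change was 0.56 (SE 0.11, limma adjusted p = 0.00398), below the fold limit. Blocking on the pool number gave an adjusted p of 0.0126, and with the median-ratio scaling the log2 fold change was 0.29 (adjusted p = 0.0522). Its locus overlaps PLEKHG6 by 410 bases, a gene that was called higher at 0.895 ± 0.276 and 3.06 ± 0.352 FPKM. TNFRSF21 (DR6), another death domain receptor, measured 5.36, 4.84, 4.14 and 3.97 FPKM across the initial pools, then 6.95, 8.89, 7.96 and 8.3 FPKM in steatosis, without overlap (log2 fold change 0.80, adjusted p = 0.00195). TNFRSF25 (DR3) had 0.18, 0.82, 0.84 and 0.5 FPKM across the initial pools, then 0.83, 0.76, 0.78 and 0.71 FPKM in steatosis (limma adjusted p = 0.32). Initial pools 1 and 4 lay below the steatosis range, pool 2 within it and pool 3 just above it. Its locus overlaps PLEKHG5.

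The membrane death receptors of TNFSF10 were not among the genes chosen by symbol. A search of the descriptions, made after the values were seen, found LOC100624226 (TNFRSF10A-like) and LOC100737977 (TNFRSF10B-like). The former measured 6.42, 5.99, 4.79 and 6.23 FPKM across the initial pools, then 8.41, 9.06, 8.13 and 10.81 FPKM in steatosis, with a log2 fold change of 0.63 (standard error 0.13, limma adjusted p = 0.00723). The latter measured 2.91, 2.88, 2.52 and 3.77 FPKM across the initial pools, then 5.19, 5.21, 4.2 and 10.74 FPKM in steatosis, a log2 fold change of 0.96 (standard error 0.26, limma adjusted p = 0.0229, and 0.00515 with the pool number as a block). Neither passed both limits of a call, and with the median-ratio scaling the adjusted p was 0.11 and 0.107. Near-identical receptor copies can share reads. The same search also found LOC100627067 (TNFRSF26-like) and LOC102158193 (similar to FAS). These had log2 fold changes of -0.17 and -0.50 (limma adjusted p = 0.635 and 0.577), with overlapping groups.

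TNF itself stayed low. It measured 0.37, 0.96, 0.57 and 1.17 FPKM across the initial pools, then 1.03, 1.14, 1.31 and 1.51 FPKM in the steatosis pools. The steatosis pool was higher than the initial pool of the same number in 4 of 4 cases, but initial pool 4 lay within the steatosis range. The log2 fold change was 0.73 (SE 0.30, limma adjusted p = 0.0955), not past the test, with an adjusted p of 0.052 when the pool number was a block. With the median-ratio scaling the log2 fold change of TNF was 0.48 (limma adjusted p = 0.315). About 11 to 44 fragments were counted per pool. Its receptor TNFRSF1B (TNFR2), found mainly on immune and endothelial cells, measured 16.28, 18.46, 16.09 and 14.11 FPKM across the initial pools, then 27.78, 32.17, 30.09 and 30.07 FPKM in steatosis. The gap between the groups was wide and the log2 fold change was 0.89 (SE 0.10, limma adjusted p = 0.000322), again under the fold limit. With the median-ratio scaling it was 0.62 (adjusted p = 0.00111).

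The lymphotoxins organise lymphoid tissue. LTA was at most at 0.14 FPKM in any pool. LTB measured 1.61, 2.13, 3.81 and 1.62 FPKM across the initial pools, then 1.86, 1.9, 2.47 and 2.87 FPKM in steatosis, with overlapping groups and a log2 fold change of 0.06 (standard error 0.27, limma adjusted p = 0.892), which was -0.21 with the median-ratio scaling. Part of LTB overlaps LST1. LTBR, which binds LTB and is carried by stromal cells and hepatocytes, had 22.4, 26.88, 23.2 and 22.41 FPKM across the initial pools, then 33.19, 29.45, 25.14 and 32.73 FPKM in steatosis. Steatosis pool 3 lay within the initial range and the adjusted p was 0.0483 (log2 fold change 0.34, SE 0.11, limma). With the median-ratio scaling the log2 fold change of LTBR was 0.07 (adjusted p = 0.679). TNFSF14 (LIGHT), which also binds LTBR, ranged from 0.31 to 1.52 FPKM across the initial pools, then from 0.99 to 1.18 FPKM in steatosis (adjusted p = 0.337).

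None of the costimulatory receptors CD40, TNFRSF8, CD27 and TNFRSF4 was called. CD40, through which T cells activate macrophages, dendritic cells and B cells, measured 2.34, 2.51, 2.79 and 2.16 FPKM across the initial pools, then 4.61, 4.75, 3.99 and 6.41 FPKM in steatosis, a log2 fold change of 0.97 (standard error 0.16, limma adjusted p = 0.00205). It passed the fold limit without initial pool 3 and without steatosis pool 3. Its ligand CD40LG, of activated T cells, had 0.08, 0.22, 0.22 and 0.62 FPKM across the initial pools, then 0.45, 0.29, 0.37 and 0.59 FPKM in steatosis, with at most about 9 fragments, and no difference was detectable (adjusted p = 0.278). TNFRSF8 (CD30), a receptor of activated lymphocytes, measured 2.42, 2.74, 2.49 and 2.67 FPKM across the initial pools, then 5.01, 3.96, 4.73 and 4.78 FPKM in steatosis (log2 fold change 0.81, SE 0.12, adjusted p = 0.00103). Its neighbour TNFRSF1B lies 20537 bases away on chromosome 6, with a similar log2 fold change of 0.89.

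CD27, a receptor of T and B lymphocytes, measured 0.88, 1.88, 1.42 and 1.31 FPKM across the initial pools, then 2.43, 2.08, 2.24 and 2.4 FPKM in steatosis (log2 fold change 0.74, SE 0.20, limma adjusted p = 0.0235, and 0.0966 with the median-ratio scaling). Its ligand CD70 had a value of 0 FPKM in 5 pools. TNFRSF4 (OX40), of activated T cells, measured 0.05, 0.21, 1.1 and 0.19 FPKM across the initial pools, then 0.93, 0.56, 0.36 and 1.08 FPKM in steatosis. Its log2 fold change of 1.13 had a wide interval (-0.16 to 2.41, adjusted p = 0.165), and initial pool 3 was above the highest steatosis pool. TNFRSF18 (GITR), 4526 bases from TNFRSF4 on chromosome 6, measured 0.19, 0.12, 0.26 and 0.12 FPKM across the initial pools, then 0.45, 0.39, 0.22 and 0.76 FPKM in steatosis (two-sided exact permutation test, p = 0.0571).

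The marker genes of lymphocytes were read beside these receptors. The T and NK cell list summed to between 42.6 and 71.2 FPKM across the initial pools and between 87.3 and 98.2 FPKM in steatosis. Of its 11 tested genes 2 were called higher, NKG7 (13.5 ± 1.69 to 34.6 ± 2.72 FPKM) and CD4 (8.21 ± 1.06 to 18.1 ± 3.79 FPKM). Most of the rise of the sum lay in these genes, and no other gene of the list had an adjusted p under 0.05 by limma. CD3E went from 7.42 ± 2.38 to 8.87 ± 1.95 FPKM (limma adjusted p = 0.355) and CD3G from 4.08 ± 1.22 to 3.88 ± 0.343 FPKM (adjusted p = 0.929). No gene of that list was at 0 in any pool. The 13 macrophage genes, all above 0 in every pool, summed to between 1093 and 1421 FPKM across the initial pools and between 1489 and 1712 FPKM in steatosis. Of these, MARCO and CD68 were called higher and 7 more had an adjusted p under 0.05, whereas CD14 and CD5L had log2 fold changes of -0.19 and -0.34. With the median-ratio scaling CSF1R, AIF1, ITGAM and VSIG4 stayed under 0.05. ADGRE1, C1QB and C1QC then had adjusted p of 0.0641, 0.1 and 0.45 by limma. CD14 and CD5L had log2 fold changes of -0.47 and -0.62 with that scaling (limma adjusted p = 0.0198 and 0.0349). The dendritic cell list went from 9.65 to 13.5 FPKM up to 18.5 to 21.1 FPKM, and the endothelial list from 66.8 to 76.2 FPKM up to 89.1 to 117 FPKM, with 0 genes called in both by limma, 1 and 2 genes higher at an adjusted p under 0.05 and 2 and 5 at an unadjusted p under 0.05. In the dendritic cell list the gene under 0.05 was IRF8, the most abundant of the list, at 8.14 ± 1.28 and 14.8 ± 0.659 FPKM. FLT3, XCR1, FCER1A and ZBTB46 had adjusted p from 0.0654 to 0.576 by limma, and CLEC9A was at 0 in some pools. In the neutrophil list CSF3R was called higher, MPO and ELANE were at 0 in some pools, and the sums overlapped (5.77 to 12.3 and 9.2 to 14.7 FPKM). What part these cells have in the rise of the receptors was not tested.

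Ligands and receptors of B cell survival were set beside B cell markers, of which 3 of 5 tested were lower at an adjusted p under 0.05 by limma and 0 higher, also at an unadjusted p under 0.05. TNFSF13B (BAFF), a survival factor for B cells made by myeloid cells, measured 1.4, 2.01, 1.85 and 2.08 FPKM across the initial pools, then 3.12, 3.88, 3.55 and 3.7 FPKM in steatosis. Its groups did not overlap, and the log2 fold change was 0.93 (SE 0.15, limma adjusted p = 0.00193), close to the fold limit. TNFRSF13C (BAFF receptor) measured 0.74, 0.78, 1.01 and 0.75 FPKM across the initial pools, then 2.03, 1.36, 1.21 and 1.28 FPKM in steatosis (log2 fold change 0.75, SE 0.20, adjusted p = 0.0183). Its adjusted p was 0.0794 with the median-ratio scaling. TNFRSF13B (TACI) had a log2 fold change of 0.55 (adjusted p = 0.116), and TNFRSF17 (BCMA), a receptor of plasma cells, of 0.22 (adjusted p = 0.649), or -0.03 with the median-ratio scaling. The 8 B cell marker genes summed to between 18.7 and 48.4 FPKM across the initial pools and between 12.8 and 17.1 FPKM in steatosis. MS4A1 (CD20) was called lower with a log2 fold change of -1.23 (adjusted p = 0.00937), CD79A and JCHAIN had adjusted p of 0.0331 and 0.0273 with log2 fold changes of -1.08 and -0.96, and CD22 did not pass the test (log2 fold change 0.09, adjusted p = 0.768). No B cell marker was at 0 in any pool.

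TNFRSF11A (RANK), the receptor through which osteoclasts form, ranged from 0.5 to 0.7 FPKM across the initial pools, then from 0.7 to 1.01 FPKM in steatosis, with touching groups and a log2 fold change of 0.44 (standard error 0.19, limma adjusted p = 0.101). Its ligand TNFSF11 (RANKL) was at most at 0.17 FPKM. The decoy receptor TNFRSF11B (osteoprotegerin), which captures TNFSF11, measured 0.81, 1.01, 0.65 and 0.64 FPKM across the initial pools, then 1.2, 1.51, 1.09 and 2.12 FPKM in steatosis (log2 fold change 0.83, SE 0.23, adjusted p = 0.0252). With the median-ratio scaling its adjusted p was 0.0794. The whole span of TNFRSF11B lies within that of COLEC10 in the annotation, a collectin that went from 21.3 ± 1.74 to 39.3 ± 5.22 FPKM (log2 fold change 0.88, limma adjusted p = 0.000637). Only the spans of the genes were compared, so whether exons are shared is not known. Reads of any shared exon could not be told apart without strand, whose use is not given in the sources used here. TNFRSF19 (TROY), a receptor of epithelial and stem cells, measured 1.41, 1.7, 2.16 and 1.14 FPKM across the initial pools, then 3.36, 3.48, 3.99 and 2.28 FPKM in steatosis. Its groups lay next to each other without overlap, and it missed the fold limit of 1 by less than the rounding (SE 0.22, limma adjusted p = 0.00935). TNFSF15 (TL1A), a ligand of endothelial and myeloid cells, measured 3.82, 0.36, 0.92 and 0.42 FPKM across the initial pools, then 0.85, 1.45, 2.45 and 2.17 FPKM in steatosis (adjusted p = 0.363). Its highest value was that of initial pool 1, the pool with stomach and muscle transcripts.

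Genes that act with the family were read from lists of receptor adaptors, NF-kB components, ectodomain shedding factors, death effectors and TNF-induced genes, and from the family members EDA, EDAR, NGFR and RELT. Of their 72 tested genes 8 were called higher and 0 lower by limma, and 32 were higher and 1 lower at an adjusted p under 0.05, the latter also the only one lower at an unadjusted p under 0.05. Over all tested genes, 6.01% were called higher and 26.7% were higher at an adjusted p under 0.05, and the counts of single lists below stand beside the same shares. With the median-ratio scaling EDARADD, RHBDF1 and VCAM1 stayed called and the other 5 did not, and without steatosis pool 4 the number of calls was 4. Among the 26 tested adaptors only EDARADD, an adaptor of EDAR, was called, and it went from 0.045 ± 0.042 to 0.472 ± 0.182 FPKM (adjusted p = 0.00203). It passed the filter through the 4 steatosis pools alone, with about 0 to 5 fragments in the initial pools and 17 to 41 in steatosis. TRAF1, an adaptor that binds TNFRSF9 and TNFRSF1B, measured 0.77, 0.86, 0.88 and 0.72 FPKM across the initial pools, then 1.73, 1.52, 1.5 and 1.96 FPKM in steatosis, a log2 fold change of 0.97 (standard error 0.15, adjusted p = 0.00171) and so just below the fold limit. BIRC3 (cIAP2), an inhibitor of apoptosis bound to TRAF proteins, had a log2 fold change of 0.66 (adjusted p = 0.00195). The median over the adaptors was 0.32.

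Among the 12 NF-kB components NFKBIE, an inhibitor of NF-kB, was called, and went from 1.76 ± 0.234 to 4.25 ± 0.649 FPKM (log2 fold change 1.22, limma adjusted p = 0.000461). Its log2 fold change was 0.96 with the median-ratio scaling, under the fold limit. Of the 12 components 8 were higher at an adjusted p under 0.05. NFKB1 and NFKB2 had log2 fold changes of 0.51 and 0.74 (adjusted p = 0.00489 and 0.00652), while RELA was at 35 ± 6.2 and 39 ± 2.44 FPKM (adjusted p = 0.362). With the median-ratio scaling NFKB1 and NFKB2 had 0.24 and 0.47 (limma adjusted p = 0.112 and 0.023). CHUK, a kinase of the same pathway, was the only gene of these lists that was lower at an adjusted p under 0.05, at 8.64 ± 1.63 and 6 ± 0.754 FPKM (adjusted p = 0.0301).

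In the shedding list 3 of 9 genes were called. RHBDF1 and RHBDF2 (iRhom1 and iRhom2), which guide the TNF-cleaving protease ADAM17 to the cell surface, rose from 2.57 ± 0.664 to 6.49 ± 1.64 FPKM and from 3.41 ± 0.649 to 6.9 ± 0.469 FPKM (adjusted p = 0.00258 and 0.000786 from limma), and TIMP3, an inhibitor of ADAM17, from 13.2 ± 7.11 to 33.8 ± 3.44 FPKM (adjusted p = 0.00581). With the median-ratio scaling RHBDF2 had a log2 fold change of 0.75 and TIMP3 an adjusted p of 0.0172. ADAM17 itself went from 4.72 ± 0.904 to 7.09 ± 0.558 FPKM (log2 fold change 0.59, limma adjusted p = 0.0131, and 0.0934 with the median-ratio scaling). Factors that promote shedding and an inhibitor of it were thus called together.

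None of the 8 death effectors was called by limma and 1 of them, MLKL of the necroptosis pathway, had an adjusted p of 0.0237 with a log2 fold change of 0.50, the only one also at an unadjusted p under 0.05. The median log2 fold change of that list was 0.06. With the median-ratio scaling MLKL had a log2 fold change of 0.24 (limma adjusted p = 0.168). RIPK3, of the same list, then had -0.44 (limma adjusted p = 0.04). Of the 15 tested genes of the TNF-induced list 3 were called. That list also holds TNFAIP8L1, TNFAIP8L2 and TNFAIP8L3, which are named for their likeness to TNFAIP8 and not for induction by TNF. The adhesion molecules VCAM1 and ICAM1 rose from 7.07 ± 1.53 to 19.5 ± 3.79 FPKM (adjusted p = 0.000422) and from 4.96 ± 0.801 to 10.6 ± 1.78 FPKM (adjusted p = 0.00101), and TNFAIP8L2, an inhibitor of immune cell activation, from 3.36 ± 0.921 to 7.6 ± 1.18 FPKM (adjusted p = 0.00336). ICAM1 and TNFAIP8L2 had log2 fold changes of 0.81 and 0.92 with the median-ratio scaling and were then not called. The chemokines CCL2 and CXCL10 had log2 fold changes of 1.24 and 1.56 with adjusted p of 0.018 and 0.0456, and with the pool number as a block they were called (adjusted p = 0.00626 and 0.0081). With the median-ratio scaling their adjusted p from limma was 0.0672 and 0.129, and the groups of CXCL10 overlapped. TNFAIP3 (A20), a deubiquitinase that limits TNF signalling, had a log2 fold change of 0.38 (adjusted p = 0.268), and IL6 and SELE did not pass the filter.

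**Figure D4:**
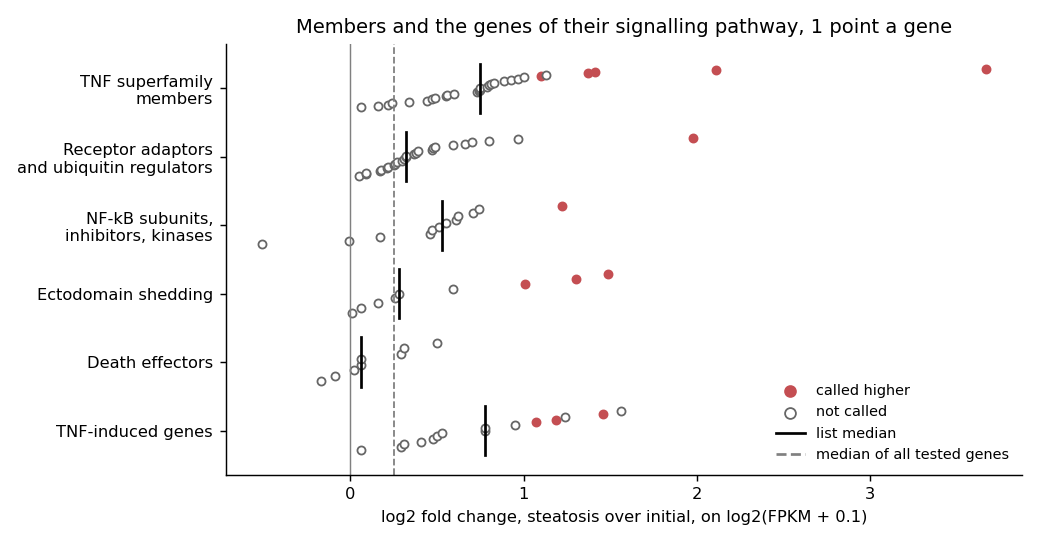
Log2 fold change of each tested gene, steatosis over initial, for the 29 tested members and 5 lists of their signalling pathway; filled points are called, black bars are list medians and the dashed line is the median of all tested genes. The median was 0.75 for the members, 0.78 for the TNF-induced list and 0.06 for death effectors.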

How the data were processed

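Liver RNA of 8 pools was read as paired ends by the authors, who filtered the reads, mapped them with HISAT2 2.0.4 to Sus scrofa 11.1, added transcripts assembled with StringTie, and quantified genes with Bowtie2 2.2.5 and RSEM 1.2.12 (versions from the submitters' processing notes). The authors deposited FPKM per gene, with no stated scaling between libraries, and 4 tables of pairwise Poisson comparisons between equally numbered pools, of which only gene length was used. Their fold changes, FDR and p values were not used. All 37 members had an ID in RefSeq's Sscrofa11.1, which gave the coordinates.

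FPKM was tested with limma 3.58.1 (R 4.3.3, mean-variance trend) and members under the filter by exact permutation of pools between groups, on both sides, whose smallest p is 0.0286. Tables and plots used Python 3.11.15, pandas 2.3.3, scipy 1.17.1 and matplotlib 3.10.9. The fit was tested on simulated data. One fragment was read from the lowest step of FPKM times length in genes of 800 to 1300 bases.

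By the study's methods the same pigs were sampled at both times. Deviations from group means of equally numbered pools had correlations of 0.163, 0.35, 0.317 and 0.247 (pool 1 to pool 4), so the pool number was used as a block in an alternative fit. Members given with values in every pool were those called, those with no overlap and a log2 fold change over 0.5, TNF with TNFRSF1A and TNFRSF1B, FAS with FASLG and the partners of called members. Values of some others are also given. In each pathway list called genes, or those of smallest adjusted p, were named first, and further genes were chosen for contrast after their values were seen. The members and lists were chosen with earlier results of these data known. Lists also held stellate cell, cholangiocyte, muscle and stomach genes.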

Additional observations from a re-analysis of the deposited data

Results flagged for a closer look

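Of 74 groups of 4 pools (37 members in both groups), 6 had a pool whose gap to the nearest pool exceeded Dixon's limit, and chance flags about 1 in 20 groups of normally distributed values. Where the other pools are equal, as for TNFSF9 and CD70, any gap gives a flag, so that rate does not hold for them. TNFSF15 was at 3.82 FPKM in initial pool 1, far above the other initial pools. CD70 was at 0.11 FPKM in the same pool and listed at 0 in the other initial pools. Initial pool 3 was the highest for TNFRSF4 (1.1 FPKM), TNFRSF13C (1.01 FPKM) and TNFSF9 (0.32 FPKM), and this pool also had the highest sum of B cell markers (48.4 FPKM). TNFSF11 was at 0.17 FPKM in steatosis pool 2. The values of CD70, TNFSF9 and TNFSF11 rest on few fragments.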

How the results depend on the processing

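The number of members called higher was 5 with all pools and from 5 to 7 on leaving out single libraries, with all 5 calls kept. It was 3 with a pseudocount of 1 (FAS and TNFSF9 fell under the fold limit), 12 with no fold limit at an adjusted p under 0.01 (an alternative chosen after seeing the data) and 16 with no fold limit at an adjusted p under 0.05. FAS also fell under the fold limit with the median-ratio and upper-quartile scalings, which left 4 calls each. The members' median log2 fold change of 0.75 became 0.43 with a pseudocount of 1, 0.57 with upper-quartile scaling and 0.53 with median-ratio scaling, and lay between 0.65 and 0.84 without each library. The number of pathway genes called higher (8) was 3 with a pseudocount of 1, 3 with upper-quartile scaling and 3 with median-ratio scaling, from 4 (without steatosis pool 4) to 8 without each library, and 32 with no fold limit at an adjusted p under 0.05, where 1 was lower. With the pool number as a replicate block 5 members and 10 pathway genes were called higher, the added ones being CCL2 and CXCL10, and no other call changed. No member was called lower under any setting run. A filter of 1 FPKM removed TNFSF9, which left 4 calls. Members with fewer than about 20 fragments per pool are limited by depth.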

Other observations

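Within steatosis, pools 1 and 4 were both above pools 2 and 3 for 10 of the 29 tested members, as for 23.5% of all tested genes, and both below for 4 of the 29 (19.5% of all tested genes). In the initial group they were both below for 11 of the 29 (33.1% of all tested genes) and both above for none (4.98%). In steatosis the difference was large for TNFRSF9, with a mean of 6.61 against 2.25 FPKM, and for TNFRSF4, with 1.01 against 0.46 FPKM, whereas in the initial pools TNFRSF4 had 0.12 against 0.655 FPKM. The same steatosis pools had the higher sums of cholangiocyte genes, with 18.6 and 18.5 FPKM in steatosis pools 1 and 4 and 7.57 and 7.89 FPKM in pools 2 and 3, and of stellate cell genes, with 230 and 319 FPKM against 118 and 126 FPKM. In the initial group cholangiocyte genes summed to 19.9, 7.33, 6.71 and 4.06 FPKM across pools 1 to 4. Stellate cell genes there summed to 195, 148, 109 and 63.8 FPKM, so pool 4 was the lowest for both lists. Of these lists 0 of 4 cholangiocyte genes and 1 of 8 stellate cell genes, LRAT, were called higher by limma in steatosis over initial pools, and 2 and 4 were higher at an unadjusted p under 0.05. Their part in the difference was not tested. The third principal component of all tested genes, with 11.9% of the variance, also set pools 1 and 4 apart from pools 2 and 3 in both groups.

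A gene described as similar to FAS, LOC102158193, measured 1.86, 0.33, 0.57 and 1.07 FPKM in initial pools 1 to 4 and 1.3, 0.27, 0.15 and 1.17 FPKM in steatosis pools 1 to 4, so that pools 1 and 4 were the highest in both groups (log2 fold change -0.50, SE 0.63, adjusted p = 0.577 from limma). It was singled out after its values were seen.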
